A study of Mus musculus with 12 samples.

Results

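Glutathione S-transferases (GSTs) and UDP-glucuronosyltransferases (UGTs) are the enzymes that attach glutathione or a sugar to drugs, hormones and reactive by-products so that they can be excreted. The genes described here are the 38 of 33188 in the count table whose symbols name a GST of the alpha (Gsta), mu (Gstm), omega (Gsto), pi (Gstp) or theta (Gstt) class or a UGT of family 1, 2 or 3. They are 20 GSTs, of which 4 are Gsta, 7 Gstm, 2 Gsto, 3 Gstp and 4 Gstt, and 18 UGTs, of which 8 are Ugt1a, 1 Ugt2a, 7 Ugt2b and 2 Ugt3a.

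RNA was measured in kidneys of wild-type (WT) mice in 12 libraries, 4 in each of 3 groups. CTL was the control. HUA was a hyperuricemia model made with potassium oxonate (PO), which blocks the enzyme that breaks down uric acid in mice, and hypoxanthine (HX), a purine that is turned into uric acid. XZSW was this PO and HX model given the herbal decoction Xin-Zi-Sheng-Wan (XZSWD). Strain, sex, age, doses and times are not given in the sources used here, nor do the labels tie the 4 samples of a group to different mice. The p-values below therefore cover the variation among these samples alone, part or all of which may be technical. The table's columns carry the letters C, N and M, which the sample descriptions tie to CTL, HUA and XZSW, and no other label checks that match for N and M.

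In the kidney UGTs and alpha-class GSTs are found mainly in the proximal tubule, the segment that takes up filtered and blood-borne compounds. GSTs are mostly soluble enzymes that join glutathione to electrophiles, and the product is trimmed and acetylated to a mercapturate for the urine. UGTs sit in the membrane of the endoplasmic reticulum and transfer glucuronic acid from UDP-glucuronate to bilirubin, steroids, phenols and drugs, while the UGT3 enzymes use other sugar donors.

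Many of these genes are near copies of each other, and how a read from such a copy is assigned bears on every value below. The 8 Ugt1a genes lie on mouse chromosome 1 (GRCm38) as 1 transcription locus: each has its own exon or exons upstream, for example chr1:88055411-88056336 in Ugt1a10 and chr1:88095064-88095978 in Ugt1a7c, and all share the 4 exons that begin with chr1:88215044-88215175. The last 738 coding bases were therefore identical in all 8, which is 45.9% to 46.5% of each coding sequence. The 60 bases around the join are shown because, of the coding sequence, only the part before it can tell the genes apart (lower case, the last 30 bases of the gene's own sequence, from its first exon or, in Ugt1a6a and Ugt1a6b, its second; capitals, the first 30 bases of the shared exon).
Ugt1a7c: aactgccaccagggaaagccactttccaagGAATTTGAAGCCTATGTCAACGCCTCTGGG
Ugt1a10: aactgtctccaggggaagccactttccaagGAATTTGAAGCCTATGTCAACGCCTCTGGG
Ugt1a9: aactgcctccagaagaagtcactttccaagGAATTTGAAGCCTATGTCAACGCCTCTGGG
Ugt1a1: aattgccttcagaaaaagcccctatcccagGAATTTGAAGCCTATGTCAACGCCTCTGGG
Ugt1a6a: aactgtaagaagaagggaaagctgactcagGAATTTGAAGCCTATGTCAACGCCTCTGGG
Ugt1a6b: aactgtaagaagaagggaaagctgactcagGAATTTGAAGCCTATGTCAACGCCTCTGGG
The last pair is the same throughout this window, and Ugt1a2 and Ugt1a5 also shared 1 sequence there. Past the coding part, the last exon of the annotated transcript had 1876 bases in Ugt1a7c and 871 to 878 in the other 7, so its far end was annotated to Ugt1a7c alone.

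Coding sequences of at least 90% identity joined 13 members into 6 close-paralog groups: Gsta1 with Gsta2 (97.5%), Gstp1 with Gstp2 (98.1%), Ugt1a6a with Ugt1a6b (98.4%), Ugt1a10 with Ugt1a9 (95.3%), Ugt3a1 with Ugt3a2 (93.3%), and Ugt2b38 with Ugt2b5 (97.0%) and Ugt2b37 (94.1% to Ugt2b38). The Ugt2b trio, on the minus strand of chromosome 5, held the most abundant member of all. Its stretch with the most differences, coding bases 1417 to 1506, shows what a read has to separate the copies by (capitals, bases that differ from Ugt2b38).
Ugt2b38: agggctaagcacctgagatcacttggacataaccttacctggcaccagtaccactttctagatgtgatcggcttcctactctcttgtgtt
Ugt2b5: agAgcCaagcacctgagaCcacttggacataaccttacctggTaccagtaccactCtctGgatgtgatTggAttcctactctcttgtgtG
Ugt2b37: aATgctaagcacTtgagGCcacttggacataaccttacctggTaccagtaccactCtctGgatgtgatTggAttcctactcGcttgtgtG
Over the whole coding sequence of 1593 bases, Ugt2b5 differed from Ugt2b38 at 47 positions and matched it without a break for up to 443 bases, and Ugt2b37 differed at 94 with a longest match of 118. For Ugt1a6a and Ugt1a6b the differences were fewer, 26 of 1596 bases, and 13 of them lay in coding bases 271 to 360 (capitals, bases that differ from Ugt1a6a).
Ugt1a6a: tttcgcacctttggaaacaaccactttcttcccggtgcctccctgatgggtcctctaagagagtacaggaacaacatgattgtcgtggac
Ugt1a6b: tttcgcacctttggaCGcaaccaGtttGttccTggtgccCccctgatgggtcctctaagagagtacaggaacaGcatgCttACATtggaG
For Ugt3a2 and Ugt3a1, whose values are also split below, 20 of 106 differences lay in coding bases 209 to 298 (capitals, bases that differ from Ugt3a2).
Ugt3a2: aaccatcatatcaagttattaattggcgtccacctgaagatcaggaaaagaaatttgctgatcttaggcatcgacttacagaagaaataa
Ugt3a1: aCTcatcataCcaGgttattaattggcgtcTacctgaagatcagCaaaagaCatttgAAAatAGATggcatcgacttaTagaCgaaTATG

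Library totals ran from 51.6 M to 64.8 M counts for CTL, 59.6 M to 74.3 M for HUA and 58.3 M to 71.1 M for XZSW. Of these counts the 38 members took 0.553% ± 0.0439 in the controls, 0.302% ± 0.0582 in HUA and 0.443% ± 0.0338 with the decoction (mean ± SD, n = 4), with no overlap between any of the groups. Of the 38, 33 had enough counts to be tested; Gstt4, Ugt1a5, Ugt2b1, Ugt2b35 and Ugt2b36 did not, with at most 29 counts in any library. Levels within a gene are given as CPM with TMM factors, that is counts per 1 M reads after a scaling that offsets differences in composition, and levels between genes as the deposited FPKM, which is per length. Changes come from edgeR's quasi-likelihood test over all 19772 tested genes, and "rose" or "fell" is used only at a Benjamini-Hochberg adjusted p under 0.05.

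In CTL kidneys the ranking by FPKM was led by UGTs. Ugt2b38 was at 733 ± 187 FPKM, followed by Ugt3a2 at 399 ± 16.9, Gstm1 at 262 ± 17.8 and Ugt1a7c at 160.3 ± 12.5 (mean ± SD, n = 4). The ranges of Ugt2b38 (576 to 1003), Ugt3a2 (387 to 424), Gstm1 (242 to 282) and Ugt1a7c (142 to 170.4) did not overlap, so this order did not depend on the library. Next came Ugt2b37 at 106 ± 20.3 and Ugt3a1 at 98.4 ± 3.10, whose ranges overlapped. Of the GSTs below Gstm1, Gstp1, Gstm5 and Gstt1 were at 63.8, 55.9 and 51.3 FPKM on average, and Gsto1 was at 9.14 ± 1.11.

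The leading gene was not the same in HUA. Ugt2b38 had the highest FPKM of all members in 4 of 4 CTL and 4 of 4 XZSW libraries, but in 3 of 4 HUA libraries that place was taken by Gstm1, a mu-class GST. Summed over its 18 members the UGT family was at 1546 ± 236 FPKM in CTL, 607 ± 186 in HUA and 1132 ± 148 in XZSW. The HUA range (422 to 832) lay below those of CTL (1322 to 1878) and XZSW (1006 to 1341), which overlapped through XZSW2. With TMM factors applied, HUA (371 to 746) still lay below both, and XZSW (960.03 to 1460.3) and CTL (1434 to 2089) again overlapped. The 20 GSTs summed to 589.7 ± 26.6, 671 ± 45.4 and 721 ± 94.1 FPKM, with a HUA to CTL ratio of 1.14 that turned to 0.905 when the TMM factors were applied, so no direction is given for the GST sum. A ratio of the families within a library needs no scaling: UGT over GST was 2.12 to 3.35 in CTL, 0.608 to 1.16 in HUA and 1.25 to 2.16 in XZSW. XZSW lay above every HUA library and overlapped CTL only through XZSW2 (2.16). The libraries also differed in how levels followed GC content, as described below, and this ratio does not offset that. Without that slope, HUA1 was at 1.11 and XZSW1 and XZSW2 were at 1.65 and 2.16. With it, HUA2, HUA3 and HUA4 were at 1.16, 0.750 and 0.608, and XZSW3 and XZSW4 at 1.36 and 1.25.

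**Figure D1:**
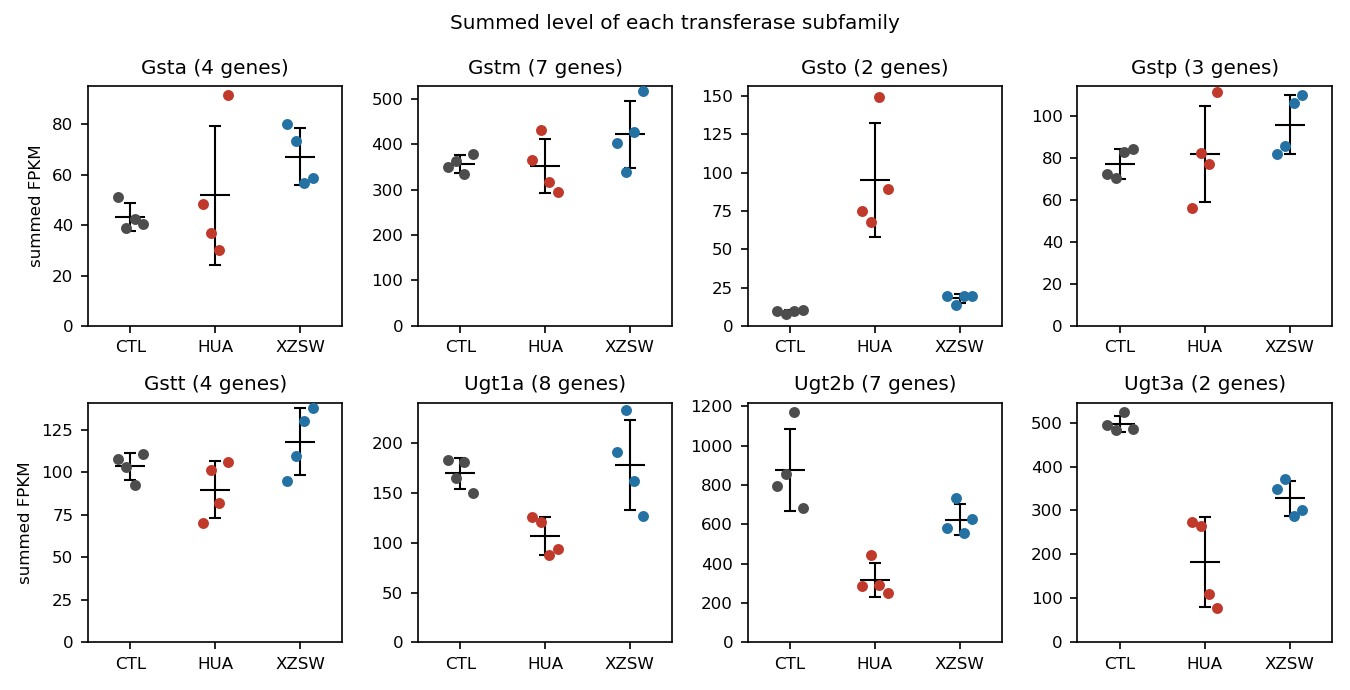
Summed deposited FPKM of each subfamily (y axes) in the 12 libraries by group (x axes); points are libraries, horizontal lines means and bars 1 SD (n = 4), and Ugt2a with its single gene is left out. The Ugt2b, Ugt3a and Ugt1a sums of HUA lie below all CTL libraries, the Gsto sum of HUA lies above all others, and the Gsta, Gstm, Gstp and Gstt sums of HUA and CTL overlap on this scale; with TMM factors the Gstt sums are apart (64.1 to 93.2 in HUA and 102.8 to 121 in CTL).

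The first comparison, HUA against CTL, bears on these enzymes in the hyperuricemia model. Of the 5 UGTs with the highest FPKM in CTL, 4 fell by 2.37-fold to 5.20-fold (Ugt2b38, Ugt3a2, Ugt1a7c and Ugt3a1), while Ugt2b37 was not called (log2 change −0.17), and the omega-class gene Gsto1 was 8.15-fold higher. Of the 33 tested members 4 rose and 8 fell, together 36.4%, where 27.8% of all tested genes were called (14.9% up and 12.8% down). The 2 families contributed unequally: 9 of 14 UGTs were called (3 up, 6 down) and 3 of 19 GSTs (1 up, 2 down). The median log2 change was −0.78 over the tested UGTs and −0.25 over the GSTs, beside 0.06 over all tested genes. The libraries of the groups were fully apart for 3 higher and 8 lower members, where 15.1% and 15.2% of all tested genes were.

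**Figure D2:**
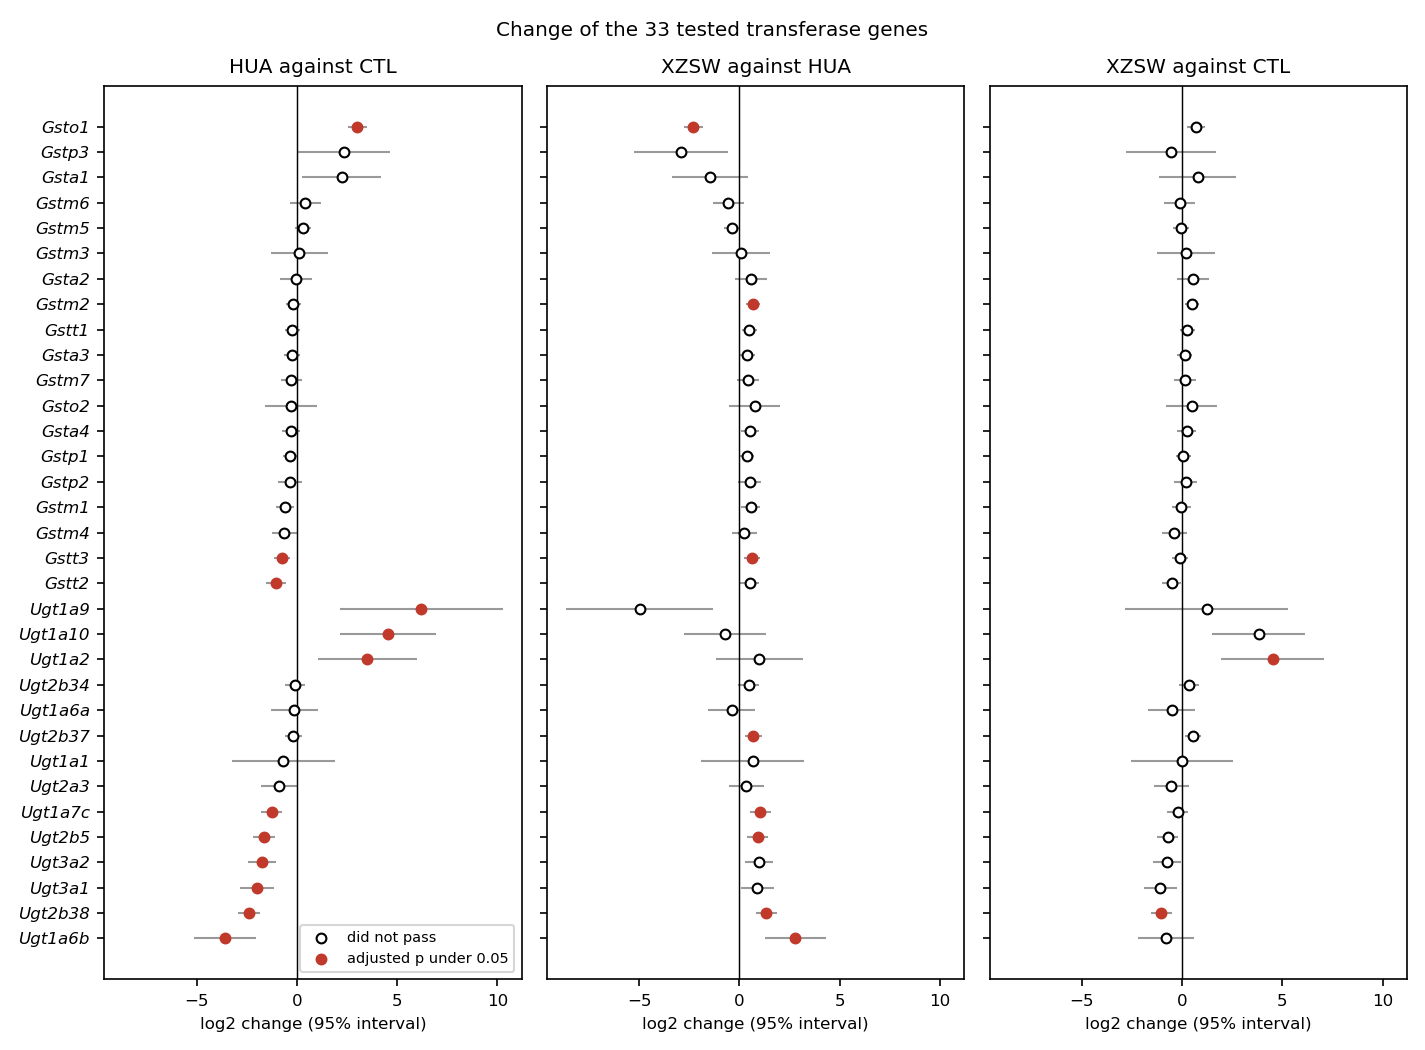
Log2 change of the 33 tested members (rows) in the 3 comparisons (panels) with 95% intervals from edgeR's quasi-likelihood test; filled points have an adjusted p under 0.05. In HUA against CTL the filled points are 9 UGTs and 3 GSTs, in XZSW against HUA 5 UGTs and 3 GSTs, and in XZSW against CTL Ugt1a2 and Ugt2b38 only.

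Of the UGT2B enzymes, which glucuronidate steroids, bile acids and drugs, Ugt2b38 (chr5:87409942-87424203, minus strand) moved most. Its CPM was 1588, 1764, 2330.0 and 1330.0 in CTL libraries 1 to 4, 276, 503, 326 and 245 in HUA and 781, 1143, 679 and 827 in XZSW. The groups did not overlap: every HUA library was below every XZSW library, and these were all below CTL. Ugt2b38 fell by 2.38 on the log2 scale in HUA (SE 0.26, edgeR adjusted p = 7.06e-05), rose by 1.35 from HUA to XZSW (SE 0.25, adjusted p = 0.00456) and was 1.03 lower in XZSW than in CTL (SE 0.25, adjusted p = 0.0354), as a fold 2.04. This last call did not pass when any CTL library, XZSW1, XZSW3 or XZSW4 was left out, with adjusted p between 0.0506 and 0.107. Nor did it pass with the kind of library as a term (0.0509), without the filter on low counts (0.0586) or with limma on FPKM (0.0575 and 0.0637), while the other 2 calls passed in every fit that was tried.

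Ugt2b5 (chr5:87124960-87140318, minus strand) had a similar order at a far lower level. It was at 89.98, 95.1, 103 and 60.5 CPM in CTL, 34.4, 30.4, 19.5 and 28.0 in HUA and 51.3, 78.9, 41.5 and 40.2 in XZSW. All HUA libraries were below the others, and XZSW2 lay inside the CTL range. Ugt2b5 fell 3.10-fold in HUA (log2 change −1.63, SE 0.25, edgeR adjusted p = 0.000548) and rose 1.89-fold from HUA to XZSW (log2 change 0.92, SE 0.24, adjusted p = 0.0235). The rise was no longer called without HUA3 (adjusted p = 0.07) or without XZSW2 (adjusted p = 0.0718), or with only the 8 samples compared (0.0546).

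Ugt2b37 (chr5:87240493-87254804, minus strand), the remaining member of the trio, was not called in HUA. Its CPM was 237, 312, 285 and 188 in CTL, 226, 306, 189 and 189 in HUA and 329, 401, 364 and 380.2 in XZSW, so that HUA and CTL overlapped and every XZSW library was above both. The change from CTL to HUA was −0.17 on the log2 scale with an interval of −0.57 to 0.24 (edgeR adjusted p = 0.553), and from HUA to XZSW Ugt2b37 rose 1.62-fold (log2 change 0.70, SE 0.19, adjusted p = 0.0263). That rise did not pass without HUA3, HUA4, XZSW2, XZSW3 or XZSW4, with adjusted p of 0.0546 to 0.08, nor under library-total scaling (0.0554) or with only the 8 samples compared (0.0528). The count of Ugt2b38 was 5.66 to 8.16 times that of Ugt2b37 in CTL, 1.22 to 1.73 times in HUA and 1.87 to 2.85 times in XZSW, with no overlap between the groups. Summed counts of the trio, which no split of reads among the copies can move, fell by 1.82 in HUA (SE 0.23, edgeR adjusted p = 0.00015) and rose by 1.11 in XZSW against HUA (SE 0.22, adjusted p = 0.00638). In XZSW against CTL the sum was not called (−0.71, SE 0.22, adjusted p = 0.0749).

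**Figure D3:**
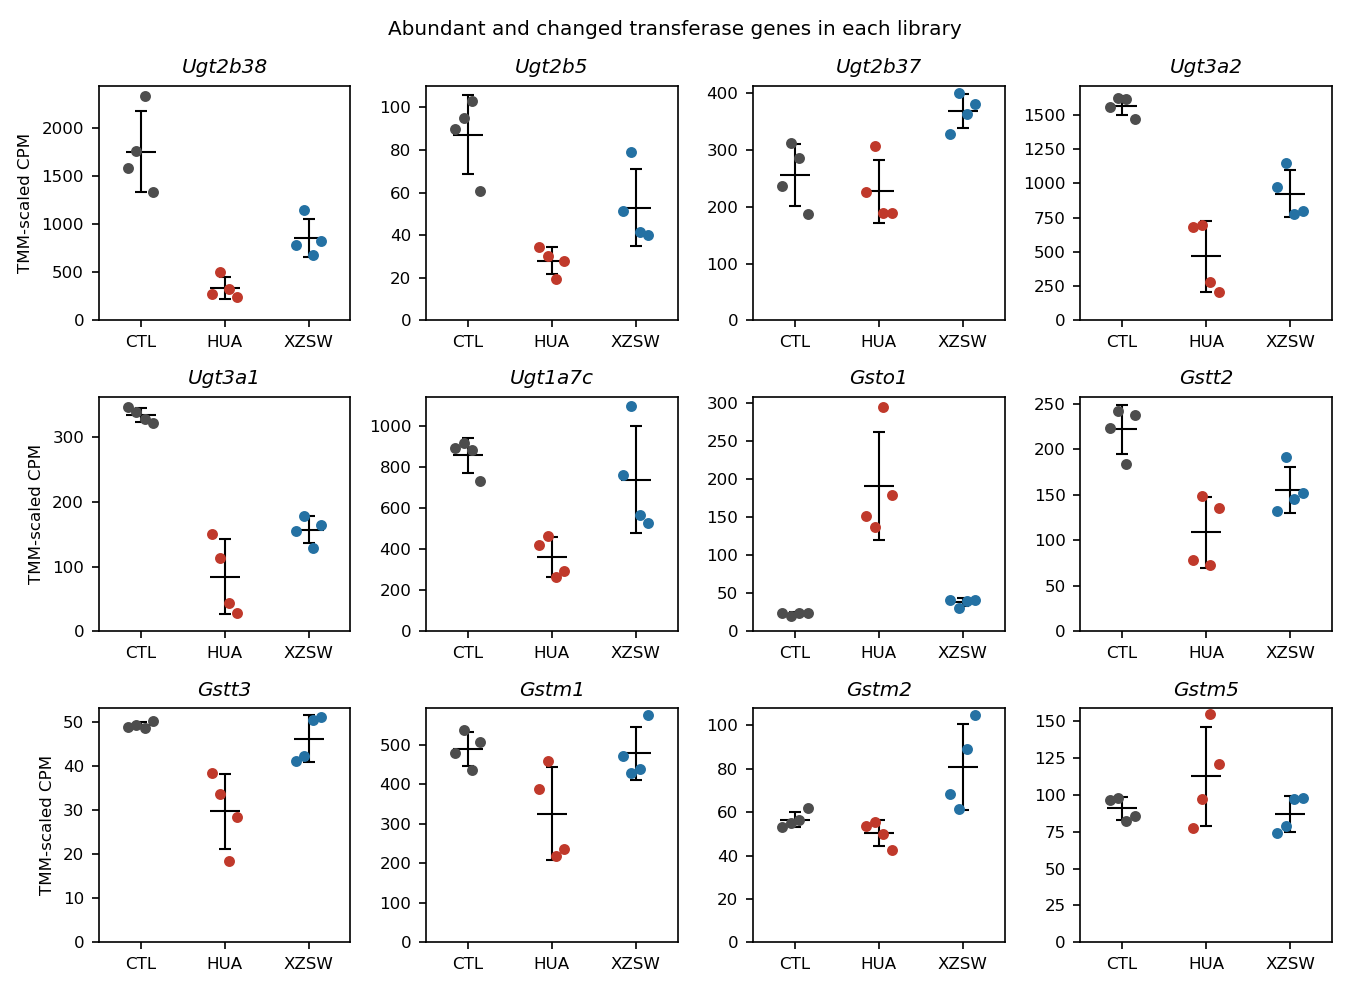
CPM with TMM factors (y axes) of 12 abundant or changed members in the 12 libraries by group (x axes); points are libraries, horizontal lines means and bars 1 SD (n = 4). Ugt2b38, Ugt2b5, Ugt3a1, Ugt3a2 and Ugt1a7c are lowest in HUA, Ugt2b37 overlaps between CTL and HUA and is highest in XZSW, and Gsto1 is highest in HUA.

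Ugt3a1 and Ugt3a2, neighbours on the plus strand of chromosome 15 (chr15:9276888-9315032 and chr15:9335550-9370955), were the steadiest UGTs among control libraries. Ugt3a2 was at 1557, 1623, 1614 and 1467 CPM in CTL, 679, 694, 283 and 208 in HUA and 972, 1147, 775 and 800.5 in XZSW. Ugt3a1 was at 345, 337, 327 and 321 CPM in CTL, 151, 113, 44.3 and 28.9 in HUA and 155, 178, 129 and 165 in XZSW. In both genes HUA3 and HUA4 were the lowest libraries, and all XZSW libraries lay below all CTL libraries. In HUA, Ugt3a2 fell 3.36-fold (log2 change −1.75, SE 0.33, edgeR adjusted p = 0.00196) and Ugt3a1 fell 3.95-fold (log2 change −1.98, SE 0.39, adjusted p = 0.0027). From HUA to XZSW their log2 changes were 0.99 (SE 0.32, adjusted p = 0.0556) and 0.89 (SE 0.38, adjusted p = 0.137), neither past the threshold, and against CTL they were −0.76 (adjusted p = 0.179) and −1.09 (adjusted p = 0.114). The sum of both copies fell by 1.79 in HUA (SE 0.34, adjusted p = 0.002).

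Ugt1a7c was the main Ugt1a gene of these kidneys, with a share of the Ugt1a counts of 96.1% ± 2.17 in control libraries, 86.6% ± 4.55 in HUA and 93.2% ± 3.98 in XZSW. The part of its longer last exon in this share was not tested. Its CPM was 894, 917, 883 and 733 in CTL, 422, 463, 265 and 296 in HUA and 762, 1099, 566 and 526 in XZSW. All HUA libraries were below all others, and XZSW spread from below the lowest to above the highest CTL library. Ugt1a7c fell 2.37-fold in HUA (log2 change −1.25, SE 0.24, edgeR adjusted p = 0.00238) and rose 2.04-fold from HUA to XZSW (log2 change 1.03, SE 0.24, adjusted p = 0.0134), and XZSW against CTL gave −0.22 (adjusted p = 0.639). The rise did not pass with only the 8 samples compared (0.0509). Counts summed over the 8 Ugt1a genes, which share their last exons, gave similar values, with a fall of 1.11 (SE 0.22, adjusted p = 0.00288) and a rise of 0.93 (SE 0.22, adjusted p = 0.0148).

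The minor Ugt1a genes spread widely between replicates of 1 group, CTL included, more than Ugt1a7c did. In CTL the coefficient of variation was 10.1% for the Ugt1a sum and 9.76% for Ugt1a7c, but 117% for Ugt1a1, 64.0% for Ugt1a6a, 63.0% for Ugt1a10 and 58.2% for Ugt1a6b. Without Ugt1a7c, the other 7 genes summed to 62.7, 11.98, 38.8 and 25.9 CPM in CTL, with a coefficient of variation of 61.9%, so the steadiness of the full sum is that of Ugt1a7c. Ugt1a1, which encodes the bilirubin-conjugating enzyme, was at 14.5, 0.714, 0.667 and 6.45 CPM in CTL, 8.86, 0.378, 0.223 and 4.55 in HUA and 12.5, 2.99, 6.32 and 0.423 in XZSW. High and low libraries of Ugt1a1 occurred in all 3 groups, and none of its comparisons passed. Whether the assignment of reads from the shared exons had a part in this spread was not tested.

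Against that spread, Ugt1a6b and Ugt1a10 still separated HUA from CTL. Ugt1a6b, which encodes a phenol-conjugating enzyme, was at 20.4, 3.11, 15.8 and 11.3 CPM in CTL, 1.27, 1.60, 0.681 and 0.650 in HUA and 16.0, 1.42, 3.38 and 8.37 in XZSW. All HUA libraries were below all CTL libraries, and only XZSW2 lay in the HUA range. The fall in HUA was 12.05-fold (log2 change −3.59, SE 0.72, edgeR adjusted p = 0.00288) and the rise from HUA to XZSW was 6.94-fold (log2 change 2.79, SE 0.70, adjusted p = 0.0186), which did not pass without HUA3 (0.0631), HUA4 (0.0516) or XZSW1 (0.0551), or with limma on FPKM (0.0582 and 0.101). The near copy Ugt1a6a was not called, at −0.13 (adjusted p = 0.889), and the sum of the pair gave −0.91 (SE 0.55, adjusted p = 0.251). As a share of the pair, Ugt1a6b had 33.5% to 59.4% of the counts in CTL and 3.87% to 17.9% in HUA, without overlap, and 12.02% to 50.1% in XZSW.

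Ugt1a10 was nearly absent from CTL, at 1.15, 1.41, 1.89 and 0.168 CPM, against 26.2, 4.09, 46.5 and 29.4 in HUA and 3.35, 1.47, 51.3 and 8.40 in XZSW. All HUA libraries were above all CTL libraries, and XZSW ran from the CTL range to above HUA in XZSW3. Ugt1a10 rose 23.2-fold in HUA (log2 change 4.54, SE 1.11, edgeR adjusted p = 0.00853), and neither XZSW against HUA (−0.72, adjusted p = 0.665) nor XZSW against CTL (3.82, adjusted p = 0.0588) passed. Ugt1a9, its 95.3% identical neighbour, was also called in HUA (edgeR adjusted p = 0.0254), but 792 of its 869 counts over all libraries were in HUA2. Its counts were 0, 8, 0 and 0 for CTL libraries, 17, 792, 14 and 14 for HUA and 10, 0, 0 and 14 for XZSW, and its call did not pass without HUA2 (adjusted p = 0.341) or without CTL1, CTL3 or CTL4 (0.0666 to 0.0699). The summed counts of Ugt1a10 and Ugt1a9 rose by 4.64 in HUA (SE 1.02, adjusted p = 0.00465) and by 3.78 in XZSW against CTL (SE 0.98, adjusted p = 0.0447), the second of which was lost without any CTL library, XZSW1, XZSW3 or XZSW4.

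Ugt1a2 was called in both model groups against CTL although the libraries overlapped. It was at 0.703, 0.397, 0.388 and 0.201 CPM in CTL, 10.96, 0.276, 0.974 and 7.15 in HUA and 9.17, 17.97, 11.3 and 0.237 in XZSW. HUA2 and XZSW4 were within the CTL range, and the remaining 6 model libraries were above it. The log2 change was 3.52 in HUA (SE 1.15, edgeR adjusted p = 0.036) and 4.52 in XZSW against CTL (SE 1.19, adjusted p = 0.047). Without any CTL library, HUA1 or HUA4 the first did not pass (0.0616 to 0.0914), nor did the second without any CTL library, XZSW1, XZSW2 or XZSW3 (0.0811 to 0.125).

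**Figure D4:**
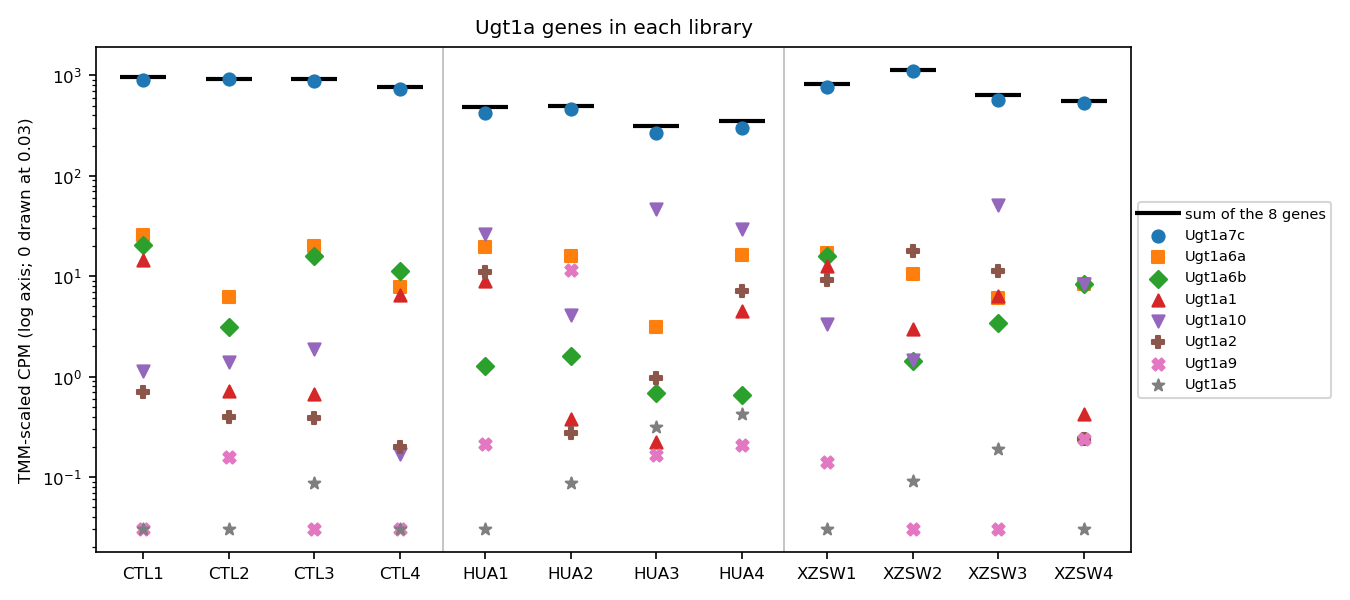
CPM with TMM factors on a log axis (0 drawn at 0.03) of the 8 Ugt1a genes in each of the 12 libraries, with the sum of the 8 as a black bar. Within CTL the sum runs from 759 to 957 CPM while Ugt1a1 runs from 0.667 to 14.5; in XZSW the sum itself runs from 552 to 1134.

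Of the GSTs, Gsto1 (chr19:47854970-47864790, plus strand) had the clearest change. It encodes an omega-class enzyme with a cysteine in its active site that reduces dehydroascorbate and other thiol-linked substrates. Its CPM was 24.6, 20.4, 24.0 and 24.5 in CTL, 152, 138, 294 and 179 in HUA and 41.5, 31.3, 39.8 and 41.1 in XZSW, with no overlap between any of the groups. Gsto1 rose 8.15-fold in HUA (log2 change 3.03, SE 0.22, edgeR adjusted p = 6.24e-06) and fell 4.96-fold from HUA to XZSW (log2 change −2.31, SE 0.22, adjusted p = 0.000137). In XZSW it was 1.64-fold above CTL, which did not pass (log2 change 0.72, SE 0.21, adjusted p = 0.0656). The adjacent gene Gsto2 (chr19:47865534-47886324) stayed under 1 CPM in all 12 libraries and gave −0.29 in HUA against CTL (adjusted p = 0.767).

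In the theta class, which lies as a cluster of Gstt3, Gstt1, Gstt4 and Gstt2 on chromosome 10, 2 of 3 tested genes fell in HUA. Gstt2 was at 224, 242, 184 and 238 CPM in CTL, 78.5, 149, 72.7 and 136 in HUA and 132, 192, 146 and 151 in XZSW. Gstt3 was at 49.0, 49.5, 48.7 and 50.3 CPM in CTL, 38.5, 33.7, 18.5 and 28.4 in HUA and 41.2, 42.3, 50.6 and 51.2 in XZSW. For both genes all HUA libraries were below all CTL libraries, and Gstt3 had a coefficient of variation of only 1.43% in CTL. Gstt2 fell 2.03-fold (log2 change −1.02, SE 0.23, edgeR adjusted p = 0.00492) and Gstt3 fell 1.66-fold (log2 change −0.73, SE 0.18, adjusted p = 0.0103), the latter losing its call under library-total scaling (adjusted p = 0.105) and with limma on FPKM (0.0959 and 0.101). From HUA to XZSW, Gstt3 rose 1.56-fold (log2 change 0.64, SE 0.18, adjusted p = 0.0338), and Gstt2 gave 0.51 (adjusted p = 0.146). The rise of Gstt3 was lost without CTL1, CTL2, HUA3, HUA4, XZSW2, XZSW3 or XZSW4 (adjusted p 0.0507 to 0.0899). It was also lost under library-total scaling (edgeR adjusted p = 0.0911), without the filter on low counts, with only the 8 samples compared and with limma on FPKM.

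None of the 14 tested genes of the alpha, mu and pi classes was called in HUA against CTL in the edgeR fit by group alone with TMM factors. In that fit 4 had an unadjusted p under 0.05, and DESeq2 called 1. The abundant Gstm1 was at 478, 537, 437 and 507 CPM in CTL, 387, 459.6, 217 and 236 in HUA and 471, 429, 438 and 575 in XZSW. HUA3 and HUA4 were low and HUA2 was within the CTL range, and its log2 change of −0.59 (SE 0.22, edgeR adjusted p = 0.0601) did not pass. Gstm5 was at 96.5, 98.1, 82.3 and 85.8 CPM in CTL, 77.3, 96.9, 155 and 121 in HUA and 74.0, 79.1, 97.3 and 98.0 in XZSW. Its HUA libraries lay on both sides of CTL (log2 change 0.31, SE 0.19, adjusted p = 0.251). Under library-total scaling Gstm5 was called (0.65, edgeR adjusted p = 0.0245), and with the kind of library as a term it gave −0.08 (0.782).

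Gstm2 was the mu-class gene that differed between treated and untreated models. It was at 53.4, 54.9, 56.5 and 61.7 CPM in CTL, 53.6, 55.7, 50.1 and 42.4 in HUA and 68.2, 61.6, 89.1 and 105 in XZSW. Every XZSW library was above every HUA library, and XZSW2 touched the CTL range. Gstm2 rose 1.60-fold from HUA to XZSW (log2 change 0.68, SE 0.16, edgeR adjusted p = 0.0146), a call that did not pass under library-total scaling (adjusted p = 0.0586), with only the 8 samples compared (0.0595) or with limma on FPKM (0.0558 and 0.057). Against CTL the log2 change was 0.52 (adjusted p = 0.0808).

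The near copies Gsta1 and Gsta2, alpha-class enzymes that also reduce lipid peroxides, were not called as a sum (0.01 in HUA, SE 0.37, edgeR adjusted p = 0.992). Gsta2 alone ranged from 19.5 to 77.3 CPM within HUA, with HUA4 the highest library of all 12. Gstp1 and Gstp2 as a sum gave −0.33 (SE 0.17, adjusted p = 0.172). Gstp3 (2.37, adjusted p = 0.117) and Gsta1 (2.24, adjusted p = 0.0855) had the largest uncalled differences in HUA, both at 3.72 FPKM or less on average and highest in HUA4. Under library-total scaling Gsta1 was called (2.59, edgeR adjusted p = 0.0403). The other tested members were Gsta3, Gsta4, Gstm3, Gstm4, Gstm6, Gstm7, Gstt1, Ugt2a3 and Ugt2b34. Their log2 changes in HUA ran from −0.90 (Ugt2a3) to 0.43 (Gstm6), and none passed in any comparison of the fit by group alone.

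The comparison of XZSW with HUA sets the decoction against the untreated model. There were 7 members that rose and 1 that fell, which was Gsto1. These 8 are 24.2% of the 33 tested, where 15.4% of all tested genes were called (7.09% up and 8.34% down). They comprised 5 of 14 UGTs (Ugt1a6b, Ugt1a7c, Ugt2b5, Ugt2b37 and Ugt2b38) and 3 of 19 GSTs (Gstm2, Gstt3 and Gsto1). The median log2 change was 0.79 over the tested UGTs and 0.42 over the GSTs, beside 0.01 over all tested genes. The libraries were fully apart for 7 higher and 2 lower members, where 8.98% and 9.08% of all tested genes were. This count was sensitive to single libraries, with 4 members called without HUA3, 5 without XZSW2 and 13 without HUA1.

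XZSW against CTL compares the treated model with the control, and it shares its samples with both other comparisons. Only Ugt1a2 (up) and Ugt2b38 (down) were called, 6.06% of the tested members where 4.99% of all tested genes were (2.72% up and 2.27% down). No GST was called by edgeR's quasi-likelihood test with TMM factors over all 12 libraries, with 3 of 19 at an unadjusted p under 0.05 and 2 called by DESeq2. Under library-total scaling the GSTs Gsto1 (0.88, edgeR adjusted p = 0.0382) and Gstm2 (0.68, adjusted p = 0.0390) were called. The UGTs Ugt2b37 (0.69, edgeR adjusted p = 0.0362) and Ugt1a10 (4.04, adjusted p = 0.0438) were also called under that scaling. With TMM factors the count of called members was 0 without any CTL library, XZSW1 or XZSW3, 1 without XZSW4 and 4 without XZSW2. The libraries were fully apart for 3 higher members (Gsto1, Gsto2 and Ugt2b37) and 3 lower ones (Ugt2b38, Ugt3a1 and Ugt3a2), where 10.3% and 11.3% of all tested genes were.

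The libraries also differed in how their levels followed the GC content of genes. Relative to the CTL mean, log2 levels rose by 0.210 to 0.333 per 10% GC in HUA2, HUA3, HUA4, XZSW3 and XZSW4, and by −0.0577 to 0.0450 in the other 7, all CTL included, so that in HUA only HUA1 was of the kind found in CTL. In HUA1 alone against CTL, the mean CPM was 6.36-fold lower for Ugt2b38, 2.54-fold for Ugt2b5, 2.31-fold for Ugt3a2, 2.21-fold for Ugt3a1, 2.03-fold for Ugt1a7c and 2.83-fold for Gstt2, and 6.49-fold higher for Gsto1. Gstt3 was only 1.28-fold lower in HUA1. With the kind of library as a term in the edgeR fit, 12 members were called in HUA against CTL, 3 up and 9 down, but not the same 12. Gstt3 (adjusted p = 0.0505) and Ugt1a9 (adjusted p = 0.254) were lost, and Gstp1 (−0.66, edgeR adjusted p = 0.0107) and Gstt1 (−0.63, adjusted p = 0.00789) were gained as falls. Both were also gained as rises from HUA to XZSW in that fit (0.51, adjusted p = 0.0158, and 0.62, adjusted p = 0.00401). Ugt2b38 in XZSW was 3.49 times its HUA level among the libraries without the slope and 2.10 times among those with it. Ugt1a10 gave different ratios in the kinds, at 0.0919 times the HUA level without the slope (XZSW1 and XZSW2 against HUA1) and 1.12 times with it. The latter rests on XZSW3, since XZSW4 alone was at 0.315 times the mean of the HUA libraries with the slope.

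Most markers of the proximal tubule fell in HUA, where the UGT sum was also lowest. Of 10 proximal tubule markers, among them the phosphate transporter Slc34a1 and the endocytic receptor Lrp2, 7 fell from CTL to HUA and 6 rose from HUA to XZSW, and none was at 0 in any library. Their summed FPKM was 1662 to 2044 in CTL, 393 to 1317 in HUA and 1806 to 2126 in XZSW. In XZSW this marker sum of deposited FPKM lay within or above the CTL range, but single markers went both ways. Slc34a1 was at 506 to 692 FPKM in CTL and 750 to 940 in XZSW. Slc7a13 was at 227 to 371 FPKM in CTL and 121 to 188 in XZSW. None of the 10 was called in XZSW against CTL, and their median log2 change was −0.34. The UGT sum in XZSW (1006 to 1341 FPKM) lay below its CTL range (1322 to 1878) except in XZSW2. All 4 tubular injury markers, such as Havcr1, rose in HUA (summed FPKM 58.1 to 70.3 in CTL, 1007 to 2958 in HUA and 169.8 to 267 in XZSW). In bulk RNA, fewer proximal tubule cells and less RNA per cell cannot be told apart, and the part of these markers in the transferase results was not tested. Liver, the other tissue with high GST and UGT levels, had low marker levels: 7 hepatocyte markers summed to 8.47 to 30.7 FPKM, with Ahsg at 0 in every CTL and HUA library and at most 0.981 FPKM in XZSW. Of the 5 tested, 1 rose in each comparison: Serpina1c in HUA and in XZSW against CTL, and Alb from HUA to XZSW (2.96, edgeR adjusted p = 0.00495), where the highest of its XZSW libraries was at 7.78 FPKM. The median log2 change of these 5 was 2.13 from HUA to XZSW and 2.55 in XZSW against CTL, and their part in the rises of the UGTs was not tested. Adrenal cortex markers summed to 0.655 to 1.77 FPKM. Of the other lists in HUA against CTL, 1 of 5 thick limb and distal tubule, 2 of 5 collecting duct and 1 of 3 endothelial markers fell, and 1 of 3 podocyte and 2 of 5 macrophage and leukocyte markers rose. From HUA to XZSW, 3 of 5 thick limb and distal tubule markers (median 0.94) and 3 of 5 collecting duct markers (median 1.07) rose as well, beside the 6 of 10 of the proximal tubule (median 1.16).

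The genes that feed and finish the conjugation reactions were counted in the same fit. In HUA against CTL their counts stand against the 27.8% called among all tested genes and a median log2 change of 0.06. From HUA to XZSW they stand against 15.4% called (7.09% up and 8.34% down) and a median of 0.01. In the mercapturate pathway, which processes glutathione conjugates, 7 of 10 tested genes fell and 1 rose in HUA (median −1.39), and 6 rose from HUA to XZSW (median 0.84). Ggt1, the brush-border enzyme that removes glutamate from the conjugate, went from 1434 ± 105 CPM in CTL to 539 ± 155 in HUA (log2 change −1.41, edgeR adjusted p = 0.000256) and 917 ± 139 in XZSW. Nat8, which acetylates the resulting cysteine conjugate, was at 277, 92.7 and 175 CPM (−1.58 in HUA, adjusted p = 0.00176), and the dipeptidase Dpep1 rose from HUA to XZSW (1.82, adjusted p = 0.00734).

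Of the genes listed for UDP-glucuronate and glucuronic acid, 8 of 10 fell and none rose in HUA (median −1.05), and 4 rose from HUA to XZSW. The list is not limited to genes that make or use the sugar donor of the UGTs, so these counts do not measure its supply. The aldehyde reductase Akr1a1 was at 1842 ± 85.6 CPM in CTL, 882 ± 205 in HUA and 1482 ± 203 in XZSW (−1.06 in HUA, edgeR adjusted p = 0.00075). Gusb, the lysosomal beta-glucuronidase that removes glucuronic acid, was at 123.4 ± 53.0 CPM in CTL, 37.6 ± 8.06 in HUA and 37.1 ± 5.13 in XZSW. Against CTL it fell in HUA (−1.72, adjusted p = 0.000575) and was lower in XZSW too (−1.73, adjusted p = 0.00742). Dcxr rose from HUA to XZSW (1.41, adjusted p = 0.00543). Of glutathione synthesis and recycling genes, 5 of 9 fell in HUA (median −0.68), among them Gclm, the modifier subunit of the rate-limiting ligase (−0.68, adjusted p = 0.00178), and Chac2, which degrades glutathione (−1.68, adjusted p = 0.000776).

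The remaining lists were counted in the same way. Other glutathione transferases and related membrane enzymes had 4 rises and 2 falls in HUA among 9 (median 0.44), the falls being the mitochondrial Gstk1 (−1.15, edgeR adjusted p = 0.000798) and Gstz1, of tyrosine breakdown (−1.33, adjusted p = 0.00101). Sulfotransferases and the enzymes that supply their sulfate donor had 5 falls among 7 (median −0.96), led by Sult1c2 (−1.24, adjusted p = 0.000798) and Papss2 (−1.78, adjusted p = 0.00227). Efflux pumps split, with 3 rises and 1 fall among 9 (median 0.22): Abcc3, a basolateral pump for glucuronides, rose from a mean of 2.44 to 9.12 CPM (adjusted p = 0.00121) and Abcg2, an apical pump that also carries urate, fell (−1.06, adjusted p = 0.000446).

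There were 2 rises and 3 falls in HUA among 12 transcription factors that act on these genes (median −0.27). Hnf4a, a regulator of proximal tubule and liver genes, was at 755 ± 47.4 CPM in CTL, 378 ± 102 in HUA and 622 ± 120 in XZSW (−0.997 in HUA, edgeR adjusted p = 0.00236). The xenobiotic receptor PXR, encoded by Nr1i2, rose at a low level (1.52, adjusted p = 0.000726). Of 7 targets of the oxidative stress factor NRF2 outside these families, 2 rose in HUA (median 0.23) and 3 fell from HUA to XZSW (median −0.59). They were led by the aldo-keto reductase Akr1b8 (3.28, adjusted p = 0.000337; 3.31, 32.2 and 7.99 CPM in CTL, HUA and XZSW) and sulfiredoxin Srxn1 (1.01, adjusted p = 0.00223).

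Promoters of the Ugt2b trio, whose members differ in the values above, are given from RefSeq (GRCm38.p6), 250 bases before to 50 after the start, 5′ to 3′ on the gene's strand. Windows were found for 34 of the 38 members. Both strands were searched for motifs, of which these 5 are given: TGACNNNGC (the antioxidant response element, bound by NRF2), GCGTG (the core bound by the aryl hydrocarbon receptor), TGANTCA (AP-1), CAAAGTCCA (HNF4) and TTGCNNCAA (C/EBP). Capitals mark matches to them, which overlap no other match in these windows.
Ugt2b38, chr5:87424154-87424453, minus strand: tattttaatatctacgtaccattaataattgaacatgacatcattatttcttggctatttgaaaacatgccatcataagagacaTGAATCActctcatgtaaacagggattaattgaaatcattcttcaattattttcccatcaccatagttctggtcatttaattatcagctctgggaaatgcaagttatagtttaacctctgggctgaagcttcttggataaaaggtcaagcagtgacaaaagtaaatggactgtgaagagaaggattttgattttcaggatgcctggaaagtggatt
Ugt2b5, chr5:87140291-87140590, minus strand: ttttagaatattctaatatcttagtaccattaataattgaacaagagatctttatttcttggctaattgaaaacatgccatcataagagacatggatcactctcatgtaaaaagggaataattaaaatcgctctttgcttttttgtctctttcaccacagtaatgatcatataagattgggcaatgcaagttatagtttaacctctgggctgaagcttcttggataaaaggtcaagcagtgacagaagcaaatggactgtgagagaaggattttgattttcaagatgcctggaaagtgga
Ugt2b37, chr5:87254739-87255038, minus strand: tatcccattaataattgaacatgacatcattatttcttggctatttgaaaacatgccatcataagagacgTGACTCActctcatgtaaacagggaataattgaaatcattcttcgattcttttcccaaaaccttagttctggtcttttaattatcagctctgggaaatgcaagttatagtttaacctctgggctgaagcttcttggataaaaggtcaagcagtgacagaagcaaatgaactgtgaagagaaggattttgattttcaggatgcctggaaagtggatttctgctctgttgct
The promoters of the trio were 76.2% to 86.9% identical. TGANTCA was found in Ugt2b38 (first base at −166 from the start) and Ugt2b37 (−180) and its letters are not in the Ugt2b5 window, while 7.81% of 32851 promoters of this length hold it.

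The 34 members with a window had 41 windows, and a member was counted if any of its windows held the motif. The shares of all promoters are per window, so the 2 are not counted alike. TGANTCA was in 8 members. The antioxidant response element was in 3 (Gsta3, Gstm5 and Gstm7, the last in only 1 of its windows), where 12.4% of all promoters hold it. None of these genes was called in the fit by group alone with TMM factors, but Gstm5 was called in HUA against CTL under library-total scaling. GCGTG was in 7 members (32.4% of all promoters), TTGCNNCAA in 2 (2.08%) and CAAAGTCCA in none (0.475%). The window of Gsto1 held none of the 5 motifs. These matches are descriptions of the letters and no binding was measured.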

How the data were processed

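Per the labels' protocols, total RNA of kidney was taken with TRIzol, checked for integrity and made into strand-specific libraries. The submitters' processing notes name cutadapt 1.9, HISAT2 2.2.1 and GRCm38. How reads were counted, and how those that fit several copies were handled, is not given in the sources used here. Per the file headers, the authors deposited raw counts per gene together with FPKM. Within a gene, count over FPKM varied by 0.0581% (median CV over 11706 genes) after a factor per library.

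Counts of all genes were filtered with edgeR's filterByExpr (19772 kept of 33188), given TMM factors (0.856 to 1.15), and fitted with the quasi-likelihood F-test over all 12 libraries (prior degrees of freedom 4.23), with Benjamini-Hochberg adjustment over all tested genes and a threshold of 0.05. Standard errors come from the F statistic. Counts of replicates differed by more than counting error (chi-square per degree of freedom 25.8 to 453), so no libraries were merged; the totals per library stand in the report. Scripts were tested on simulated data. Counts of close paralogs were also summed and refitted. Paralogs were to be grouped by protein identity; with no protein table used here, coding sequences of GENCODE M21 (at least 90% identity, single linkage) were used. Of the members 37 of 38 had the same span there as in the table, Gstp3 being the exception. Subfamily sums use FPKM as deposited and have no test.

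The values of every library are given for members called in any comparison with a mean of at least 1 FPKM in a group, and for the 6 members with the highest mean FPKM; of each pathway list, the 2 genes with the smallest p in HUA against CTL and the 1 in XZSW against HUA are named, except 1 gene that is not reported here. The members and all lists were chosen with earlier results of these data known. Alternatives were DESeq2, library-total scaling, no filter, the 8 samples of a comparison, limma on log2(FPKM + 1) and log2(FPKM + 0.1), a replicate block, the kind of library (a slope on GC content above 0.15 log2 per 10%, over 14635 genes), summed paralogs and leaving out each library. Tools were matplotlib 3.10.9, Biopython 1.88, pandas 2.3.3 and numpy 2.4.6 under Python 3.11.15, and DESeq2 1.42.0, limma 3.58.1 and edgeR 4.0.16 under R 4.3.3.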

Additional observations from a re-analysis of the deposited data

Results flagged for a closer look

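Of 99 sets of 4 libraries of 1 gene and group, 7 held a library far from the other 3 by Dixon's criterion, where chance gives about 1 in 20. Ugt1a10 was at 51.3 CPM in XZSW3 and at 1.47 to 8.40 in the other XZSW libraries. Ugt1a9 was at 11.5 CPM in HUA2 and at 0.164 to 0.212 in the other HUA libraries, and its only CTL library above 0 was CTL2, at 0.159 CPM. Gsto1 was at 20.4 CPM in CTL2, below the 24.0 to 24.6 of the other CTL libraries, and at 31.3 CPM in XZSW2, below the 39.8 to 41.5 of the other XZSW libraries. Gsta2 was at 51.0 CPM in CTL1 and at 34.6 to 36.3 in the other CTL libraries. Ugt2a3 was at 2.19 CPM in XZSW2 and at 1.58 to 1.59 in the other XZSW libraries.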

How the results depend on the processing

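The 22 calls of single members were refitted 439 times, with the call kept in 364 fits, lost in 75 and reversed in 0, and 11 calls passed every fit. These were Gsto1, Gstt2, Ugt1a10, Ugt1a6b, Ugt1a7c, Ugt2b38, Ugt2b5, Ugt3a1 and Ugt3a2 in HUA against CTL and Gsto1 and Ugt2b38 in XZSW against HUA. Fits on summed paralogs replace the single copies and are not among these fits. In HUA against CTL the sum of Ugt1a6a and Ugt1a6b was not called (−0.91, edgeR adjusted p = 0.251). The sums that hold Ugt1a10, the Ugt2b trio and the Ugt3a pair were called there. Members called in HUA against CTL numbered 12, and 10 to 13 when a library was left out; library-total scaling split 13 calls into 6 up and 7 down. Members called in XZSW against HUA numbered 8, but 5 under library-total scaling, 3 with only the 8 samples compared, 5 with close paralogs summed and 4 to 13 with a library left out. Members called in XZSW against CTL numbered 2, but 6 with DESeq2, 6 under library-total scaling, 0 without a filter, 9 with the 8 samples compared, 1 with the kind of library as a term and 0 to 4 with a library left out.

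Over all genes, 987 calls in XZSW against CTL became 2456 with DESeq2, 529 without a filter, 2625 with the 8 samples, 1744 with limma on log2(FPKM + 0.1), 1750 with the kind of library and 133 to 1596 with a library left out. The 3051 calls in XZSW against HUA became 1439 with the 8 samples and 1711 to 3817 with a library left out; the 5488 in HUA against CTL became 4208 to 6347. Library-total scaling moved the median of all genes by 0.33, −0.17 and 0.16 and the rises to 5779 (falls 1320) in HUA against CTL, 836 (2714) in XZSW against HUA and 1221 (224) in XZSW against CTL, from 2950 (2538), 1402 (1649) and 538 (449). With limma on log2(FPKM + 1) the splits were 5673 and 1414, 1184 and 2387, and 1188 and 188. With limma on log2(FPKM + 0.1) they were 5862 and 1478, 1169 and 2335, and 1545 and 199.

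Of 7 paralog sums, 4 were called in HUA against CTL in every leave-out fit, 2 in XZSW against HUA (2 to 4, with 4 without HUA4) and 1 in XZSW against CTL (0 to 1, and 0 with the kind of library). With FPKM divided by TMM factors the HUA to CTL ratios were 0.905 for GST, 0.953 for Gsta, 0.787 for Gstm, 0.840 for Gstp, 0.690 for Gstt and 0.502 for Ugt1a, from 1.14, 1.20, 0.988, 1.06, 0.868 and 0.629. The cause of these shifts was not tested beyond the construction of each setting.

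With the replicate number as a block, 13 members and 5466 genes were called in HUA against CTL, 10 and 3076 in XZSW against HUA and 2 and 813 in XZSW against CTL; Ugt1a2 lost both calls. Deviations of same-numbered samples correlated at −0.0363 to 0.239, over 0.1 in 3 of 12 pairs, and 5 of 12 libraries correlated best with their own number. Whether same-numbered samples share more than a number cannot be told from these correlations. Depth limits the 5 untested members, with at most 29 counts in a library.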
